A study of Saccharomyces cerevisiae with 6 samples.

Results

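This account concerns 9 budding yeast genes, ICT1, ECM18, CLD1, TAZ1, SLC1, ALE1, PSI1, CRG1 and TMT1, out of 5449 Saccharomyces cerevisiae genes measured on the arrays. The set joins enzymes that remove or exchange the acyl chains of phospholipids with the methyltransferase gene CRG1 and its relative TMT1. All 9 genes were found, each by 1 probe set annotated to that gene alone, and PSI1 is listed under its standard name CST26. The set was chosen by function and sequence family around ICT1 and CRG1, which were selected on their higher intensity with the compound in these same arrays, and it was put together with results of these data in view. The changes of the 9 genes are therefore given as a description, with their error. Whether a gene passed the threshold of the fit across all probe sets is stated as part of that description and supports nothing, and no p-value is given for the 9.

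Transcripts were measured in 6 cultures of wild-type yeast, each on its own Affymetrix oligonucleotide array. In 3 cultures, mid-log phase cells were grown for 3 h with 0.1 µM OGT2468, a compound named in the labels by this code alone. The other 3 cultures were grown for 3 h with the solvent DMSO alone, at 0.1%. No DMSO percentage is recorded for the OGT2468 cultures. They are described as biological samples, with no statement that they were grown on separate days. The labels give neither a strain name nor a mating type.

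A membrane phospholipid carries 2 fatty acyl chains on a glycerol backbone, and cells change these chains after synthesis by removing a chain and attaching another. A phospholipase removes a chain and leaves a lysophospholipid, and an acyltransferase restores the phospholipid with a chain from acyl-CoA or from another lipid. In mitochondria the same exchange shapes cardiolipin, the phospholipid of the inner membrane: Cld1 removes a chain and Taz1, the yeast tafazzin, puts another back. Ict1, Ecm18 and Cld1 are related to each other in sequence and to human CGI-58 (ABHD5), while Slc1, Ale1 and Psi1 are acyltransferases of other families. Crg1 and Tmt1 use S-adenosylmethionine as methyl donor. Crg1 methylates the toxin cantharidin and is named for resistance to it, and Tmt1 methylates trans-aconitate.

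The median deposited intensity of the S. cerevisiae probe sets lay between 690.7 and 1150.2 on the 6 arrays, so the arrays were brought to a common distribution by quantile normalization. Values below are normalized intensities, and changes are on the log2(intensity + 16) scale, on which the change of dim genes is understated. Background on each array was taken as the 98th percentile of probe sets for another species, between 21.8 and 25.9 intensity units, and all 9 genes were above it on all 6 arrays. Of the markers of mating type, 4 of 4 alpha genes and 3 of 5 a genes were above background on all 6 arrays. The summed intensity of the a markers was 733 to 841 in DMSO and 384 to 410 in OGT2468, and that of the alpha markers was 36653 to 37860 and 29748 to 32161. Of the a markers 3 were lower by limma and of the alpha markers 1, and the part of this shift in the values below was not tested.

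In cells grown with OGT2468, 3 of the 9 genes were higher past the threshold of the fit across all probe sets: CRG1, ICT1 and CLD1. None was lower and 6 did not pass. The threshold was a limma adjusted p under 0.05 over 8968 probe sets, of which 2.59% passed, 1.83% higher and 0.758% lower. Of the 8968, 5557 were above background on at least 3 arrays, and in a fit of these alone 581 passed. Shares over all tested probe sets, here and below, therefore include many probe sets that were not above background. Because ICT1 and CRG1 entered the set through this contrast, nothing is read from the count of 3 among the 9. The median log2 change was 0.12 over the 9 genes and -0.01 over all tested probe sets. Ranked by change among the 5449 genes, CRG1 was number 4 from the top, ICT1 number 12 and CLD1 number 23, while the lowest of the set, TAZ1, was number 321 from the bottom.

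**Figure D1:**
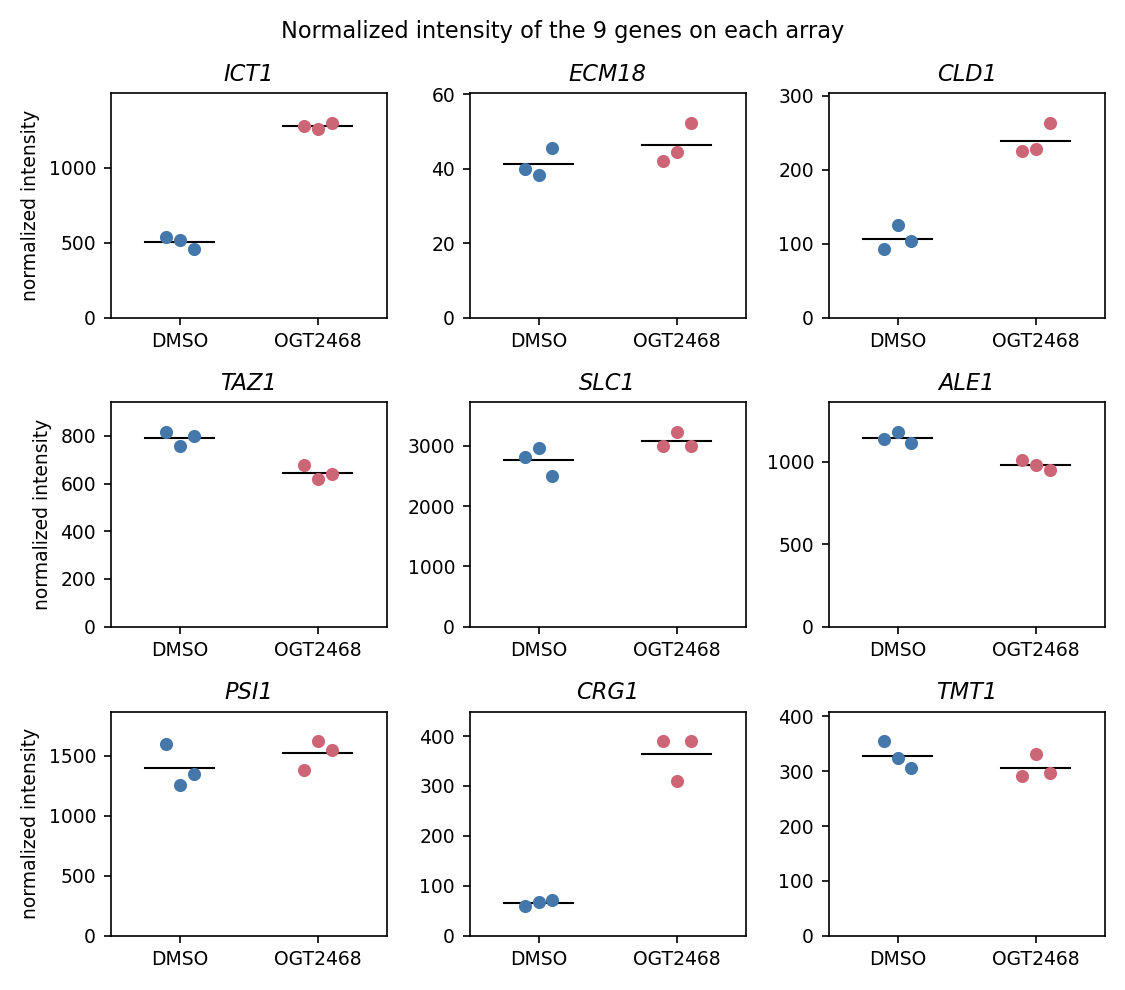
Quantile-normalized intensity (vertical axis, linear, from 0, a separate scale for each gene) of the 9 genes on the 3 DMSO arrays (blue) and the 3 OGT2468 arrays (red), with the mean of each group as a line. ICT1, CLD1 and CRG1 lie far apart between the groups, and the points of ECM18, PSI1 and TMT1 overlap.

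Among the 3 related genes, ICT1 and CLD1 each had an estimate more than 2-fold higher after OGT2468, and ECM18, the closest relative of ICT1 in yeast, did not. ICT1 encodes an acyltransferase that makes phosphatidic acid from lysophosphatidic acid. In the DMSO cultures its intensity was 541, 517 and 461, and in the OGT2468 cultures it was 1279, 1257 and 1302. The lowest treated culture was above the highest control culture by more than the whole control value, and the 3 treated cultures lay close together, with an SD of 22.2 around a mean of 1279 (n = 3). The log2 change of ICT1 was 1.31 ± 0.08 (SE, n = 3 per group), a 2.48-fold difference.

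CLD1, the phospholipase that removes a chain from cardiolipin, had an intensity of 92.1, 125.0 and 103 in DMSO and of 226, 228 and 263 in OGT2468. The groups did not overlap, and the relative spread of the control cultures was wider than for ICT1. The log2 change of CLD1 was 1.06 ± 0.12 (SE, n = 3 per group), or 2.08-fold. Its 95% interval, from 0.77 to 1.35, includes differences below 2-fold. CLD1 no longer passed the threshold without DMSO replicate 3 or without OGT2468 replicate 3, where its log2 change was 1.03 and 1.00, and with no scaling between arrays, where it was 0.82.

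ECM18 is known by its similarity to ICT1, and what it does is less well described. Its intensity was 40.0, 38.3 and 45.6 in DMSO and 42.1, 44.5 and 52.4 in OGT2468. The groups overlapped, and the deposited values were low, between 37.4 and 59.5. The log2 change of ECM18 was 0.12 ± 0.09 (SE, n = 3 per group), with a 95% interval from -0.10 to 0.34.

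None of the 4 acyltransferases outside this family passed the threshold in the main setting, with log2 changes between -0.29 and 0.16. For TAZ1 and ALE1 this depended on the setting. With probe sets above background on at least 3 arrays alone, their limma adjusted p was 0.0271 and 0.0457. Counting the fits without 1 array, TAZ1 passed in 4 other settings and not in 11, and ALE1 in 3 and not in 12. TAZ1, which rebuilds cardiolipin by moving chains between lipids, had an intensity of 818, 758 and 798 in DMSO and of 677, 620.2 and 638 in OGT2468. All 3 treated cultures were below all 3 controls, and the log2 change was -0.29 ± 0.07 (SE, n = 3 per group), with a 95% interval from -0.45 to -0.13. TAZ1 and CLD1, which act in turn on cardiolipin, therefore had changes of opposite sign.

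ALE1 encodes a lysophospholipid acyltransferase of broad specificity that sits in the endoplasmic reticulum. Its intensity was 1139, 1181 and 1111 in DMSO and 1007, 980.45 and 951 in OGT2468. The groups did not overlap, and ALE1 changed by -0.22 ± 0.06 on the log2 scale (SE, n = 3 per group; 95% interval -0.36 to -0.08). TAZ1 and ALE1 were the 2 genes of the set whose treated cultures were all below the controls. In all tested probe sets 24.1% had groups that did not overlap in one direction or the other, 12.1% with OGT2468 lower and 12.0% with it higher.

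SLC1, which adds the second chain to lysophosphatidic acid, had an intensity of 2808, 2958 and 2506 in DMSO and of 2987, 3232 and 3001 in OGT2468. Its groups were separated by a narrow gap, and the log2 change was 0.16 ± 0.08 (SE, n = 3 per group; 95% interval -0.05 to 0.36). PSI1, which places a chain on lysophosphatidylinositol, had an intensity of 1597, 1254 and 1345 in DMSO and of 1383, 1625 and 1549.83 in OGT2468. The control cultures of PSI1 spread over most of the range of the treated ones, and the log2 change was 0.12 ± 0.11 (SE; 95% interval -0.16 to 0.40). With no scaling between arrays the changes of SLC1, PSI1 and ECM18 turned negative, at -0.13, -0.15 and -0.09, as the median of all named genes moved from -0.02 to -0.27.

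CRG1 had the largest change of the set and TMT1 one of the smallest. CRG1 had an intensity of 59.8, 66.9 and 71.0 in DMSO and of 391, 310.4 and 389.63 in OGT2468. The groups were far apart, and each treated culture was more than 4 times as bright as the brightest control. The log2 change of CRG1 was 2.21 ± 0.11 (SE, n = 3 per group), or 4.62-fold, and the ratio of the mean intensities without the added 16 was 5.52.

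TMT1 had an intensity of 356, 324 and 306 in DMSO and of 292, 331 and 298 in OGT2468, and its groups overlapped. The log2 change of TMT1 was -0.09 ± 0.08 (SE, n = 3 per group), with a 95% interval from -0.30 to 0.11.

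**Figure D2:**
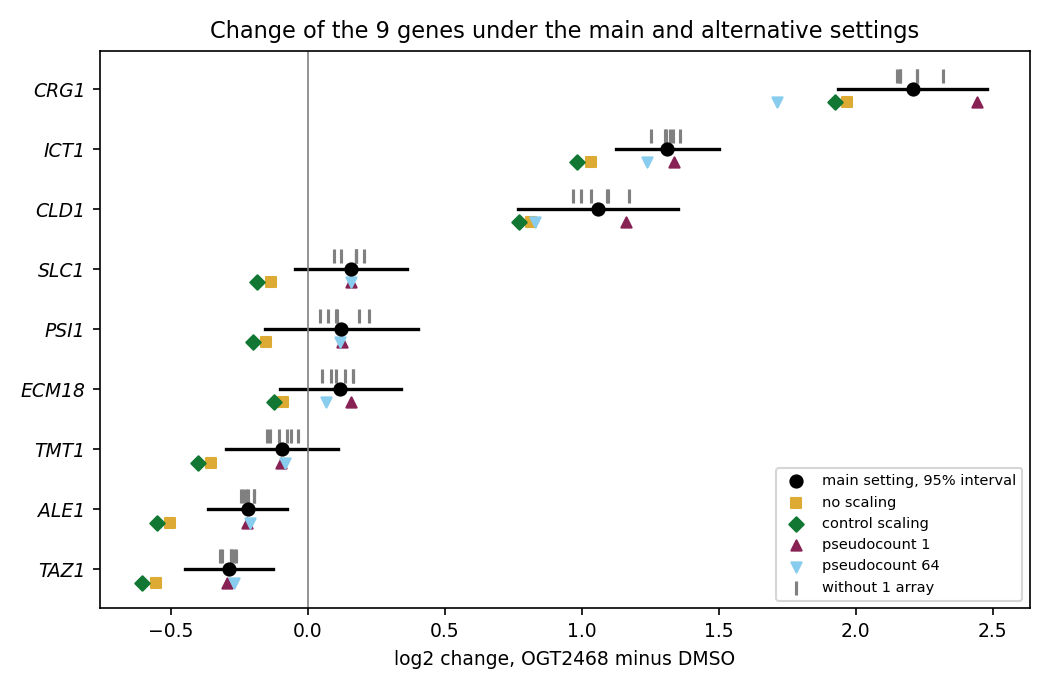
Log2 change, OGT2468 minus DMSO (horizontal axis), for each of the 9 genes: black points are the main setting with its 95% interval, grey ticks the fits without 1 array, and coloured symbols 4 other settings. CRG1, ICT1 and CLD1 stay above 0.7 under all settings drawn, and SLC1, PSI1 and ECM18 lie on either side of 0 depending on the scaling.

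The genes also differed in how tightly their replicate cultures agreed within groups, a measure that does not use the contrast. Over the 5449 named genes the median of the pooled SD within groups was 0.09 on the log2 scale, and it was 0.13 over all tested probe sets, unnamed ones included. The SD was 0.04 for ALE1 and 0.06 for TAZ1, and 10.5% and 22.6% of named genes had a smaller one. ICT1, at 0.08, lay near the middle of the named genes, with 43.3% below it. The SD was 0.15 for CRG1 and PSI1 and 0.16 for CLD1, the widest of the set, with 77.6%, 78.6% and 81.3% of named genes below. The small negative differences of ALE1 and TAZ1 were thus measured with little scatter, and the difference of CLD1 with more.

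In the deposited intensities, before quantile normalization, the array medians were 842, 758 and 690.7 in OGT2468 and 897, 786 and 1150.2 in DMSO. The ranges overlapped, and DMSO replicate 3 was the brightest array. CRG1 was deposited at 62.8, 61.0 and 93.4 in DMSO and at 384, 283 and 316 in OGT2468. The ratio of the deposited group means was 4.53 for CRG1, 2.07 for ICT1 and 1.85 for CLD1. The other 6 genes had ratios between 0.669 for TAZ1 and 0.915 for SLC1. Relative to the unscaled median change of all named genes, -0.27, the log2 changes of ECM18, SLC1 and PSI1 were 0.18, 0.14 and 0.12, and those of TAZ1, ALE1 and TMT1 were -0.28, -0.23 and -0.08.

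Genes with the profile closest to ICT1 were sought by the Euclidean distance over the 6 arrays, each gene's log2 values being taken relative to its DMSO mean. The 5 closest of the 5449 genes were PRM10 (distance 0.248), ADD37 (0.260), ERO1 (0.267), YJL107C (0.323) and ULI1 (0.343), with Pearson correlations to ICT1 between 0.984 and 0.994 over the 6 arrays. ERO1 encodes the oxidase that drives disulfide bond formation in the endoplasmic reticulum. PRM10 and YJL107C are neighbours in the gene table, and whether their signals are independent was not tested. Their log2 changes were 1.41 for PRM10, 1.23 for ADD37, 1.21 for ERO1, 1.22 for YJL107C and 1.40 for ULI1. All of these correlations follow the step between the groups, which the 6 arrays share.

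For CRG1 the closest profiles were those of RTC3 (distance 0.458), YPS3 (0.475), KDX1 (0.602), INO1 (0.806) and BAG7 (0.998), all farther away than the 5 genes closest to ICT1. In the same order, their Pearson correlations to CRG1 over the 6 arrays were 0.993, 0.998, 0.994, 0.979 and 0.966. Distance depends on the size of the changes as well as their shape, so it does not show that the profile of CRG1 was less shared. YPS3 encodes a cell surface aspartic protease, KDX1 a relative of the cell wall kinase Slt2, and INO1 the synthase for the first step towards inositol. Their log2 changes were 2.01 for RTC3, 2.47 for YPS3, 2.50 for KDX1 and 1.84 for INO1. BAG7 was at background on all 3 DMSO arrays, so its distance to CRG1 depends on values that were not measured above background.

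**Figure D3:**
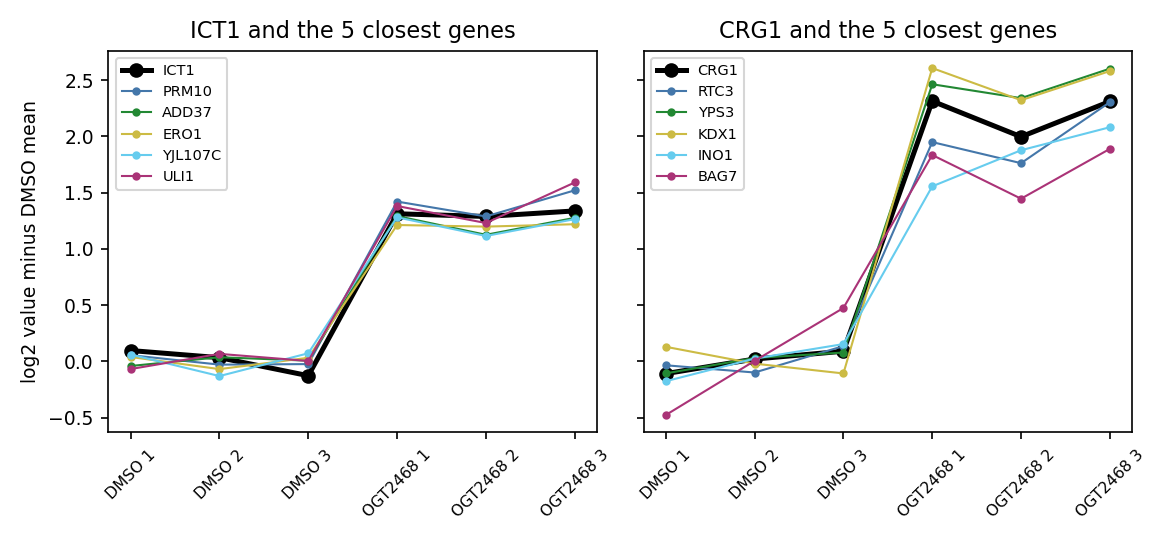
Log2 values minus the DMSO mean (vertical axis) on the 6 arrays (horizontal axis) for ICT1 (left, black) and CRG1 (right, black), each with its 5 closest genes in colour. The genes near ICT1 stay within a narrow band, and those near CRG1 spread more widely over the OGT2468 arrays.

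The genes beside the 9 on the chromosomes were read from the R64 gene table, used for gene order only. All 18 flanking genes were measured, 16 of them above background on all 6 arrays. By limma none was higher and 2 were lower, YDR124W beside ECM18 and YGR109W-B beside CLD1. Among all tested probe sets 1.83% were higher and 0.758% lower, and nothing is read from a count this small. Neither flanking gene of ICT1 or of CRG1 passed. MIM2, which encodes a protein of the mitochondrial outer membrane and lies next to ICT1, had an intensity of 731, 738 and 855 in DMSO and of 1041, 1034 and 1037 in OGT2468, with a log2 change of 0.42 ± 0.08 (limma adjusted p = 0.0623). YHR210C, next to CRG1, had a log2 change of 0.32 ± 0.19 (limma adjusted p = 0.462).

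YGR109W-B, the longer reading frame of the Ty3 retrotransposon upstream of CLD1, had an intensity of 5329, 4374 and 4979.63 in DMSO and of 2269.72, 2322 and 1597 in OGT2468, while CLD1 beside it was higher. The log2 change of YGR109W-B was -1.26 (limma adjusted p = 0.0213). Ty3 has further copies in the genome, and whether the signal comes from the copy beside CLD1 was not tested. YDR124W had an intensity of 107, 127 and 91.5 in DMSO and of 21.1, 49.0 and 27.6 in OGT2468, with a log2 change of -1.39 (limma adjusted p = 0.0404). Only 2 of its 3 OGT2468 values were above background, so the size of its difference depends on a value not measured above background. When 1 array was left out, YDR124W passed only without OGT2468 replicate 2 (limma adjusted p = 0.0202) and YGR109W-B only without OGT2468 replicate 3 (limma adjusted p = 0.0294). Neither passed with a pseudocount of 1.

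**Figure D4:**
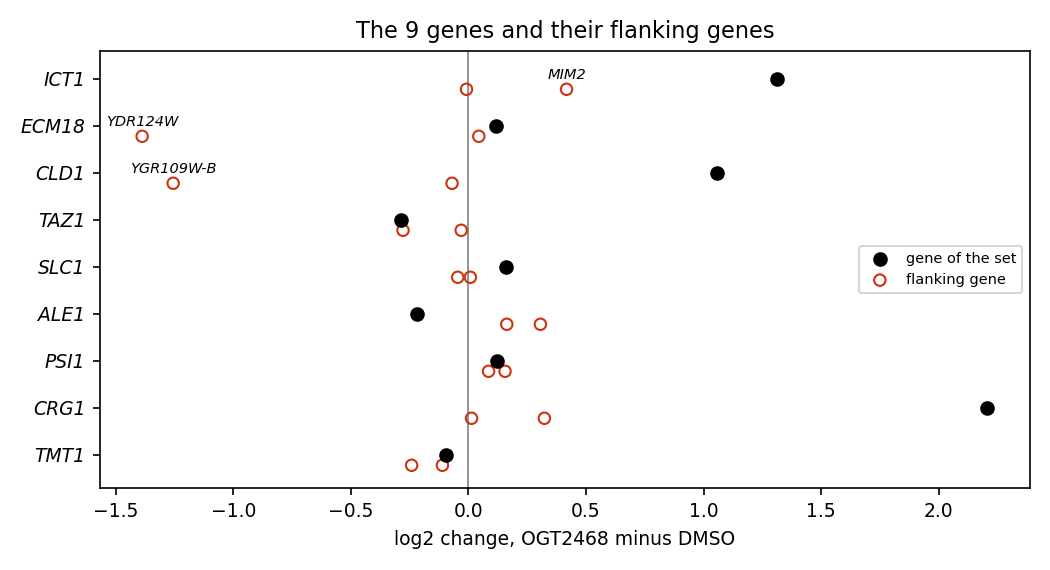
Log2 change, OGT2468 minus DMSO (horizontal axis), of the 9 genes (black points) and of the genes that flank each of them (open red circles, names given beyond 0.4 in size). The flanking genes of ICT1, CLD1 and CRG1 do not follow these genes to their level.

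The genes that surround the 9 in metabolism were held to the same threshold. Over 7 lists with 63 measured genes 2 rose and 2 fell, and the median log2 change was -0.01, the same to 2 decimals as over all tested probe sets. The 2 that rose were LPP1 and ACB1, and the 2 that fell were PLB2 and FAA3. These are 3.17% of the list genes in each direction, beside 1.83% higher and 0.758% lower among all tested probe sets, and no difference between the lists and the other probe sets is read from counts this small. None of the 4 calls held in all 6 fits without 1 array: LPP1, ACB1 and FAA3 passed in none of them, and PLB2 passed only without OGT2468 replicate 1 (adjusted p = 0.0491) or without OGT2468 replicate 2 (adjusted p = 0.0260).

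Of 12 phospholipases and lipid hydrolases, PLB2 was the 1 that fell. PLB2 encodes a phospholipase B, which strips acyl chains from phospholipids and lysophospholipids. Its intensity was 1313, 1431 and 1557 in DMSO and 620.68, 835 and 716 in OGT2468, with no overlap, and the log2 change was -0.98 ± 0.13 (SE, n = 3 per group; limma adjusted p = 0.0197). Its relatives PLB1 (0.31, adjusted p = 0.118) and PLB3 (0.50, adjusted p = 0.0861) had changes of the other sign by limma that did not pass. The lipase list had a median log2 change of -0.02.

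LPP1, a phosphatase that removes the phosphate from phosphatidic acid and related lipids, was 1 of 7 genes of the switch between phosphatidic acid and diacylglycerol. Its intensity was 411, 426 and 373 in DMSO and 552, 611 and 546 in OGT2468, and its log2 change was 0.48 ± 0.08 (SE; limma adjusted p = 0.0425). PAH1, the main phosphatidic acid phosphatase gene, had a log2 change of -0.05, and DGK1, the diacylglycerol kinase gene that acts in the reverse direction, one of 0.33 (limma adjusted p = 0.0736). The median of this list was 0.07.

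Of 11 genes that activate or supply fatty acids, ACB1 rose and FAA3 fell. ACB1, which encodes the acyl-CoA binding protein, had an intensity of 6847, 6724 and 6973 in DMSO and of 9086, 8529 and 8802 in OGT2468, a log2 change of 0.36 ± 0.06 (SE; limma adjusted p = 0.0375). FAA3, a long-chain acyl-CoA synthetase gene, had an intensity of 2818, 2882 and 2650.47 in DMSO and of 2063, 1973 and 1901 in OGT2468, a log2 change of -0.49 ± 0.07 (SE; limma adjusted p = 0.0222). With no scaling between arrays the changes of LPP1 and ACB1 were 0.21 and 0.16 and those of PLB2 and FAA3 were -1.26 and -0.78, and PLB2 alone passed.

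**Figure D5:**
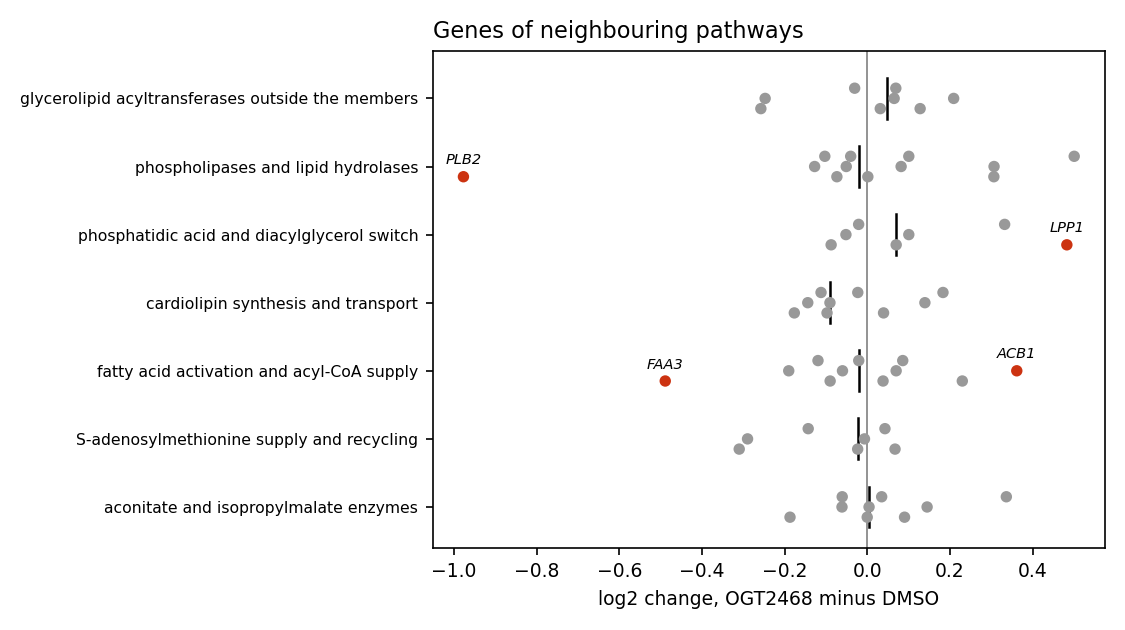
Log2 change, OGT2468 minus DMSO (horizontal axis), of 63 genes in 7 neighbouring pathways, with the median of each list as a black line. The 4 genes past the limma threshold (PLB2, FAA3, LPP1 and ACB1) are red and named, and the others lie between -0.31 and 0.50.

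In 4 further lists none of the genes passed. The other acyltransferases of glycerolipid synthesis, 8 genes, had a median log2 change of 0.05 and ran from -0.26 for GPT2 to 0.21 for DGA1. Cardiolipin synthesis and transport, 9 genes, ran from -0.18 for PSD1 to 0.18 for TAM41, with CRD1, the cardiolipin synthase gene, at 0.04. Nothing in this list was as large as the difference of CLD1.

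The genes that supply and recycle S-adenosylmethionine, the methyl donor of Crg1 and Tmt1, were 7, with a median of -0.02. The largest change was that of MHT1, at -0.31 (limma adjusted p = 0.321), and the synthetase genes SAM1 and SAM2 had changes of -0.02 and -0.01. Of 10 genes of aconitate and isopropylmalate metabolism, which provides the substrates of Tmt1, 9 were measured, with CIT2 at 0.34 (limma adjusted p = 0.337) as the largest.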

How the data were processed

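Biotin-labelled total RNA of 6 cultures was measured on Affymetrix arrays, as the labels' protocols state. The values deposited by the authors are linear intensities, 1 for each probe set on each array. The submitters' processing notes name GCRMA with no version, a method whose output is on a log2 scale. The deposited intensities are linear and differ in distribution between arrays, and the sources used here do not give how they were summarised.

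Of 10928 probe sets, 5498 had 1 S. cerevisiae gene, 1747 belonged to another species, 213 were controls and 3470 were unnamed here. The 8968 probe sets of the first and last kind were quantile normalized, 16 was added and log2 was taken. This follows an earlier treatment of the same table, and a shift of all transcripts together cannot be seen after it. OGT2468 was compared with DMSO in limma 3.58.1 (R 4.3.3; lmFit, eBayes) without covariates, with Benjamini-Hochberg adjustment over all 8968. Genes with several probe sets were represented by the brightest. Of the 73 genes on the lists 72 were measured. The 9 genes, the lists and the settings were chosen with earlier results of these data known. The named genes were the 9, all list genes past the threshold or else the largest change of a list, the 5 genes closest to ICT1 and to CRG1, and the flanking genes. A few others were named after their values were seen: PLB1, PLB3, PAH1, DGK1, CRD1, SAM1, SAM2 and the ends of list ranges.

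In simulated data of 8968 probe sets, changes were added to 200 drawn from the brighter probe sets alone, with normally distributed noise. Of these, 97% of 2-fold and 55% of 1.41-fold changes were recovered. The noise was drawn around values already normalized, so differences in scaling between arrays are not part of these rates. The rates do not apply to dim genes such as ECM18, which lay below the intensity range drawn from. Precision is limited by the number of arrays, 3 per group, and p-values measure only the spread between these cultures.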

Additional observations from a re-analysis of the deposited data

How the results depend on the processing

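The log2 changes of CRG1, ICT1 and CLD1 were positive under every setting tried, which restates how CRG1 and ICT1 were selected. CRG1 lay between 1.71 (pseudocount 64) and 2.44 (pseudocount 1), and ICT1 between 0.98 (control scaling) and 1.34 (pseudocount 1), apart from the fits without 1 array, which gave 2.15 to 2.32 and 1.25 to 1.36. CLD1 lay between 0.97 and 1.17 without 1 array. Members higher numbered 2 or 3 without 1 array and members lower 0. Members lower numbered 1 (TAZ1) with a pseudocount of 64, and 2 (TAZ1 and ALE1) with the named probe sets alone, with probe sets above background on at least 3 arrays, or with a spread modelled on intensity. The first 2 of these last settings test fewer probe sets, 5498 and 5557, and the modelled spread tests all 8968.

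With no scaling the changes of ECM18, SLC1 and PSI1 turned to -0.09, -0.13 and -0.15, and with scaling on the hybridization controls to -0.12, -0.18 and -0.20, where the median of named genes was -0.27 and -0.32. The cause was not tested. Over all probe sets 164 were higher and 68 lower (70.7% higher). There were 22 and 44 with no scaling (33.3%), 32 and 118 with control scaling (21.3%), 292 and 187 with a pseudocount of 64, 326 and 203 with the named probe sets alone (61.6%), 352 and 229 above background (60.6%), and 335 and 221 with the modelled spread (60.3%). Without 1 array 61 to 91 were higher and 28 to 40 lower.

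Of the pathway genes, 2 higher and 2 lower, none was higher with no scaling, control scaling, upper-quartile scaling or a pseudocount of 1, and 1 was lower with no scaling or upper-quartile scaling. With a pseudocount of 64 there were 5 higher and 4 lower, and with the named probe sets, the background filter or the modelled spread 7 higher and 4 lower. Without 1 array 0 were higher and 0 or 1 lower.

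The labels number the cultures 1 to 3 in both groups. Over all tested probe sets, deviations from the group mean had r = 0.06, 0.04 and 0.01 between same-numbered cultures. Between differently numbered cultures r ran from -0.06 to 0.01. With 3 arrays per group, each taken relative to its own group mean, these values cannot decide whether the numbers mark pairs. With the replicate number as a block 27 probe sets were higher and 14 lower, pathway genes were 0 and 0, and CLD1 did not pass.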
